A study of Mus musculus with 6 samples.

Results

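Expression of the genes that drive cells from G1 into S phase was examined in TuBo cells with and without p140Cap, an adaptor protein encoded by Srcin1. The 10 genes were the D cyclins (Ccnd1, Ccnd2 and Ccnd3), the E cyclins (Ccne1 and Ccne2), their kinases (Cdk4, Cdk6 and Cdk2), Rb1 and E2f1. They were taken by symbol from the 21960 genes of the deposited counts, and all 10 passed the filter on low counts that left 11800 genes for the test. The set was chosen on values of this same comparison, in which Ccnd2 was nearly lost and Ccne1 was low while Ccnd1 was alike in both groups. The values of the 10 genes are therefore given as a description, with no test of any of them.

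TuBo is a cell line from a mammary carcinoma of a BALB/c mouse that carries the rat HER2 oncogene (neu) under the MMTV promoter, which is active mainly in mammary epithelium. RNA-Seq libraries were made from 3 mock samples, labelled wt, and from 3 samples of cells transduced with a pBabe-puro retrovirus carrying the p140Cap cDNA, kept under puromycin, and grown as single-cell clones that were then pooled. All 6 samples thus share the neu background, and the groups differ in the selected clones as well as in p140Cap. The labels give no time point. Their sample fields speak of cell lines but the design text speaks of mice, and whether replicates were separate cultures is not said. The p-values given for other genes then measure only the spread between these samples, which may be technical.

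In G1, D cyclins bind Cdk4 and Cdk6, and E cyclins bind Cdk2. These kinases phosphorylate Rb, which then releases E2F factors, and E2F factors switch on genes for DNA replication, among them the E cyclins. Ccnd1 is widely cited as a target of β-Catenin and TCF, the pathway examined in the study of these cells, and is a main D cyclin of mammary epithelium.

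The transduced gene matched the labels. Srcin1 was at 12.8 to 16.6 CPM (counts per 1000000 reads of the TMM-adjusted library size) in mock libraries and at 2244 to 2519 CPM in p140Cap libraries. Its log2 fold change was 7.29 (SE 0.09), with an adjusted p = 7.05e-19 in edgeR's quasi-likelihood test, used throughout. Mock libraries held 33058719 to 75506562 reads on genes and p140Cap libraries 13770385 to 15364850, so genes with few reads were measured less precisely in p140Cap cells. Of 8 mammary epithelial markers, 7 were tested and 4 were called higher in p140Cap cells (71.1% of all genes tested were called in either direction), of which Cdh1 (adjusted p = 0.0471) lost its call without any 1 of the 6 libraries (adjusted p of 0.0531 to 0.186). The summed level of these markers was 5511 to 5909 CPM in mock and 6496 to 6718 CPM in p140Cap libraries. Krt19 was near 0 in both groups. Krt8 and Cldn3 were not called, but passed the test without mock replicate 3 (adjusted p of 0.0132 and 0.0237). Of 11 markers of leukocytes, endothelium, stroma and fat, Ptprc, Adgre1, Cd3e, Col3a1 and Dcn had no read in any library. The 2 that could be tested were both higher in p140Cap cells, namely Cd68, a macrophage marker (means of 2.14 and 3.76 CPM, log2 fold change 0.83, SE 0.15, adjusted p = 0.000119), and Pecam1, an endothelial marker (0.271 and 0.645 CPM, 1.25, SE 0.42, adjusted p = 0.0133). The call of Pecam1 was lost without mock replicate 1, p140Cap replicate 1 or p140Cap replicate 3 (adjusted p of 0.0559, 0.0604 and 0.0589). The summed level of the list was 2.46 to 2.52 CPM in mock and 4.11 to 4.70 CPM in p140Cap libraries, and its part in the results was not tested.

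In 8 of the 10 genes the CPM of the 2 groups did not overlap, and 7 of these were lower and 1 was higher in p140Cap cells. The same 8 were on the called side of the threshold used for all genes (adjusted p under 0.05), which is no test of genes chosen on this comparison and from which nothing is read. Of all genes tested, 71.1% were called (35.9% lower and 35.2% higher), and for 73.4% the groups did not overlap. The median log2 fold change of the 10 genes was -0.34, against 0.00 over all genes tested, and 1182 genes (10% of those tested) had an absolute log2 fold change of at least 1. Ccnd2, Ccne1 and Ccne2 were beyond that size and the other 7 genes were not.

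**Figure D1:**
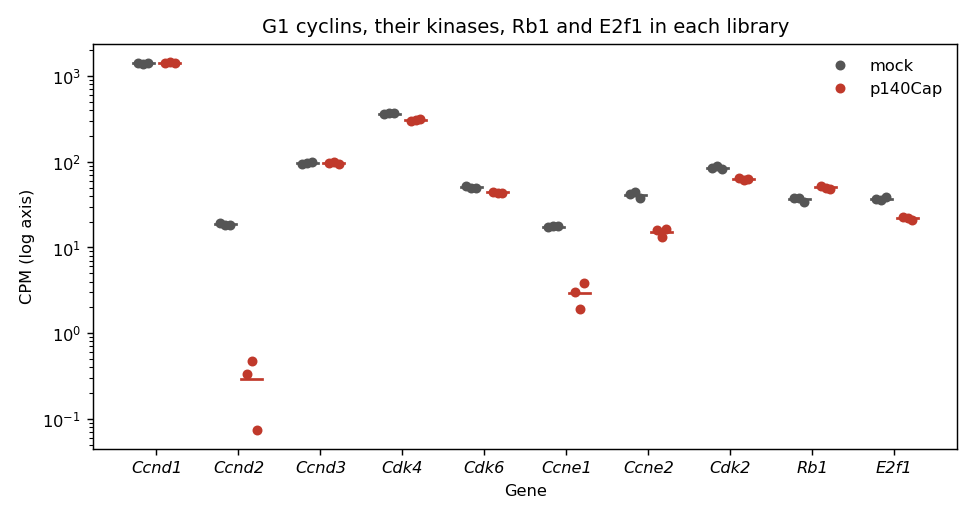
CPM of the 10 genes (log axis) in each of the 3 mock and 3 p140Cap libraries, with a line at each group's mean. The p140Cap points of Ccnd2 (0.0734 to 0.477 CPM) and of Ccne1 (1.91 to 3.82 CPM) lie far below mock, while the groups overlap for Ccnd1 and Ccnd3.

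The D cyclins, which answer to growth signals, differed from each other. Ccnd1 (chromosome 7, 144929931 to 144939831 of the mouse build GRCm38.p6) was at 1423, 1390 and 1432 CPM in mock libraries and at 1420, 1445 and 1432 CPM in p140Cap libraries. The groups overlapped, with means of 1415 ± 21.8 (SD, n = 3) and 1432 ± 12.6 CPM and a log2 fold change of 0.02 (SE 0.04).

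Ccnd2 (chromosome 6, 127125162 to 127152188) was at 19.5, 18.2 and 18.2 CPM in mock libraries and at 0.330, 0.477 and 0.0734 CPM in p140Cap libraries. These values rest on 1494, 724 and 606 reads in mock and on 5, 7 and 1 reads in p140Cap libraries. Every p140Cap library was thus far below every mock library, but at least 1 read was still counted in each. The log2 fold change was -5.95 (SE 0.20). At so few reads this SE is too small, and DESeq2 gave 0.41 and limma-voom 0.39. The pooled reads gave a ratio of mock to p140Cap of 63.1 (95% exact interval 36.9 to 119, counting error only). With all libraries thinned at random to the smallest total, 264 to 269 reads were left in mock and 1 to 6 in p140Cap libraries, and the log2 fold change was -5.98. In RNA from a whole culture, fewer cells that express a gene and less RNA per cell cannot be told apart.

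Ccnd3 (chromosome 17, 47505051 to 47599689), the third D cyclin, was at 94.2, 96.5 and 98.4 CPM in mock libraries and at 97.2, 100 and 94.9 CPM in p140Cap libraries. The groups overlapped here too, with means of 96.4 ± 2.08 and 97.5 ± 2.73 CPM and a log2 fold change of 0.02 (SE 0.05).

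To set the D cyclins beside each other, reads were divided by exonic length. Ccnd1 made up 96.0% ± 0.0616 (SD, n = 3) of D-cyclin reads per kb in mock and 96.6% ± 0.0839 in p140Cap cells. Ccnd3 made up 3.38% ± 0.0812 and 3.40% ± 0.0769. The share of Ccnd2 was 0.643% ± 0.0251 in mock and 0.0100% ± 0.00693 in p140Cap cells, so that the near loss of Ccnd2 left the summed D-cyclin level at 308 ± 4.63 CPM per kb in mock and 310 ± 2.84 CPM per kb in p140Cap cells.

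Both kinases that pair with D cyclins were slightly lower with p140Cap. Cdk4 (chromosome 10, 127063535 to 127067288) was at 361, 368 and 367 CPM in mock and at 303, 305 and 314 CPM in p140Cap libraries. Without overlap, the means were 366 ± 3.71 and 307 ± 5.64 CPM, a log2 fold change of -0.25 (SE 0.04). Cdk6 (chromosome 5, 3341004 to 3531008) was at 52.2, 49.6 and 48.8 CPM in mock and at 45.0, 43.5 and 43.8 CPM in p140Cap libraries. Its groups did not overlap either, and its log2 fold change was -0.19 (SE 0.05), well within the range of most genes. Cdk4 made up 96.8% ± 0.140 of the reads per kb of the 2 kinases in mock and 96.7% ± 0.0964 in p140Cap cells, a difference within the spread of the libraries.

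The stretch before the start of Cdk4 is shown because it holds 4 copies of the E-box word CACGTG, the recognition word of MYC-type factors. The 250 bases upstream are chr10:127063285-127063534 (plus strand, RefSeq sequence, GRCm38.p6), with the E-box words in capitals.
Cdk4: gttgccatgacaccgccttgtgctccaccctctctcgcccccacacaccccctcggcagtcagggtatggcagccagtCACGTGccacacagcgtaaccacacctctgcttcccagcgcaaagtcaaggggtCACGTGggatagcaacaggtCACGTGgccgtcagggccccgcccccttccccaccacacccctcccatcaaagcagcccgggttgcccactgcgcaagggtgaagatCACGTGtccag
The words lie 167, 113, 93 and 6 bases before the start. At least 1 such word, which reads alike on both strands, is present in 6.02% of the 32851 windows of this length in the table, and at least 4 in 7 windows (0.0213%). No binding was measured.

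The E cyclins, which bind Cdk2 at entry into S phase, were both lower in every p140Cap library. Ccne1 (chromosome 7, 38097984 to 38107490) was at 17.2, 17.9 and 17.6 CPM in mock libraries and at 3.03, 1.91 and 3.82 CPM in p140Cap libraries. The reads behind these values were 1315, 713 and 585 in mock and 46, 28 and 52 in p140Cap libraries. The means of 17.6 ± 0.372 and 2.92 ± 0.961 CPM gave a log2 fold change of -2.59 (SE 0.13), and the pooled reads a ratio of mock to p140Cap of 6.03 (95% exact interval 5.04 to 7.26, which covers counting error only and not the spread between libraries). Of the 11800 genes tested, 91 had a log2 fold change at or below that of Ccne1, and 16 at or below that of Ccnd2.

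The 250 bases before Ccne1 are shown for the gene with the largest difference whose upstream stretch was in the table. They are chr7:38107491-38107740, printed along the minus strand on which the gene lies, with the word of the GC box, GGGCGG or its reverse complement, in capitals.
Ccne1: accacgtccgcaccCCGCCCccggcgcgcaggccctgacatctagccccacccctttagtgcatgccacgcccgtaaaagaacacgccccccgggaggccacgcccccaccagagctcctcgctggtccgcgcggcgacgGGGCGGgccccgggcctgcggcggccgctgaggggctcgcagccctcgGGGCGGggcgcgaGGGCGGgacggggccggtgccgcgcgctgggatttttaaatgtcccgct
The GC box, a word read by Sp1-type factors, occurs 4 times, 231, 105, 57 and 44 bases before the start. It was present at least once in 32.7% of all windows and at least 4 times in 4.09%. None of the E2F words TTTCCCGC, TTTCGCGC, TTTGCCGC and TTTGGCGC, searched on both strands, was in these letters.

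Ccne2 (chromosome 4, 11190433 to 11204779) was at 41.7, 43.9 and 37.4 CPM in mock and at 15.8, 13.4 and 16.5 CPM in p140Cap libraries. The groups were well apart, with means of 41.0 ± 3.32 and 15.2 ± 1.66 CPM and a log2 fold change of -1.43 (SE 0.08). For both E cyclins the lowest p140Cap library was replicate 2 and the highest replicate 3. Per kb, Ccne1 made up 39.0, 38.8 and 42.2% of E-cyclin reads in mock libraries and 23.0, 18.1 and 26.4% in p140Cap libraries, so that Ccne2 was the more abundant of the pair in all 6 libraries and more so with p140Cap. The summed E-cyclin level was 12.1 ± 0.630 CPM per kb in mock and 3.51 ± 0.557 CPM per kb in p140Cap cells, or 0.289 of the mock level.

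Cdk2 (chromosome 10, 128697938 to 128705051), the kinase of the E cyclins, was at 85.0, 88.4 and 81.8 CPM in mock and at 65.0, 60.6 and 63.4 CPM in p140Cap libraries. The groups did not overlap, but the log2 fold change of -0.43 (SE 0.05) was far smaller than that of either E cyclin. The ratio of summed E-cyclin level to Cdk2 level per kb was accordingly 0.900 ± 0.0118 in mock and 0.351 ± 0.0477 in p140Cap cells. The 250 bases before Cdk2 are shown because, of the 4 stretches searched outside the annotated genes (those of Ccnd3, Ccne1, Cdk2 and Cdk4), this one held an E2F word. They are chr10:128705052-128705301, printed along the gene's minus strand, with that word in capitals.
Cdk2: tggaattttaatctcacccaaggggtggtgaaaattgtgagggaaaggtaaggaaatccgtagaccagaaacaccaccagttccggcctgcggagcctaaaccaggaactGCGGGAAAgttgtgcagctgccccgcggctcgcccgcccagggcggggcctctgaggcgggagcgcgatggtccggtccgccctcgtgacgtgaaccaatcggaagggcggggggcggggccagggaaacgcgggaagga
The word is TTTCCCGC read on the strand opposite to the gene, 133 bases before the start, and 1.86% of all windows held at least 1 of the E2F words. The stretch also holds 5 GC boxes, and no E2F word, GC box or E-box overlapped another in those 4 stretches.

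**Figure D2:**
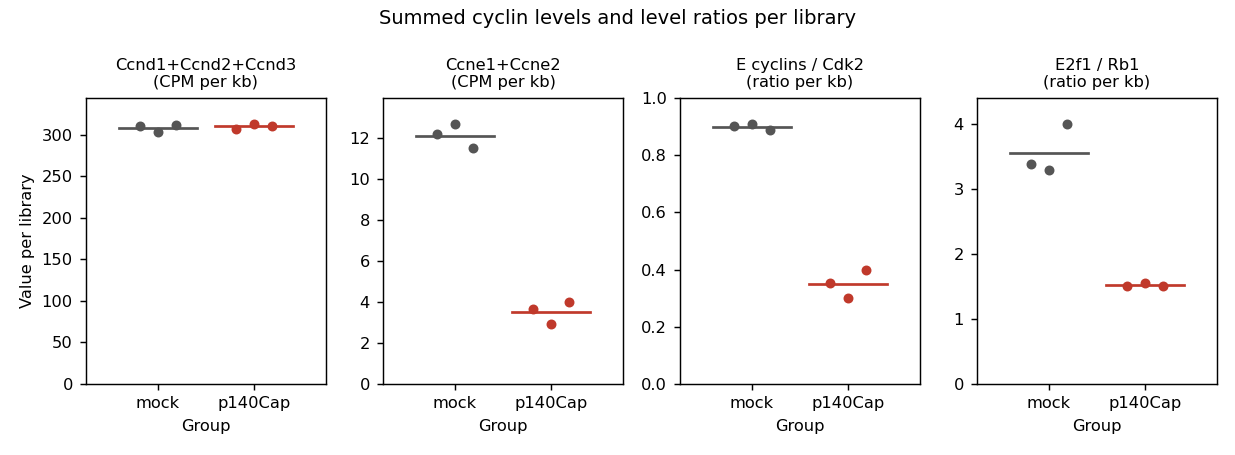
Values per library (points) and group means (lines) for the summed D-cyclin level and the summed E-cyclin level in CPM per kb, and for the ratios of E-cyclin to Cdk2 level and of E2f1 to Rb1 level per kb; axes start at 0. The summed D-cyclin level overlaps between groups (303 to 312 and 307 to 313 CPM per kb), and the other 3 quantities are lower in each p140Cap library.

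Rb1, the repressor that the cyclin kinases phosphorylate, and E2f1, an activator that Rb releases, lay on opposite sides. Rb1 (chromosome 14, 73192858 to 73325951) was at 38.0, 37.8 and 33.5 CPM in mock and at 52.6, 50.1 and 48.5 CPM in p140Cap libraries. All p140Cap values were above all mock values, with a log2 fold change of 0.47 (SE 0.06), and Rb1 was the one gene of the 10 whose p140Cap values all lay above mock. E2f1 (chromosome 2, 154559400 to 154569892) was at 37.0, 35.6 and 38.5 CPM in mock and at 22.6, 22.3 and 20.9 CPM in p140Cap libraries. Its groups were apart in the other direction, with a log2 fold change of -0.75 (SE 0.06). The ratio of E2f1 to Rb1 level per kb was 3.56 ± 0.386 in mock and 1.52 ± 0.0332 in p140Cap cells.

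**Figure D3:**
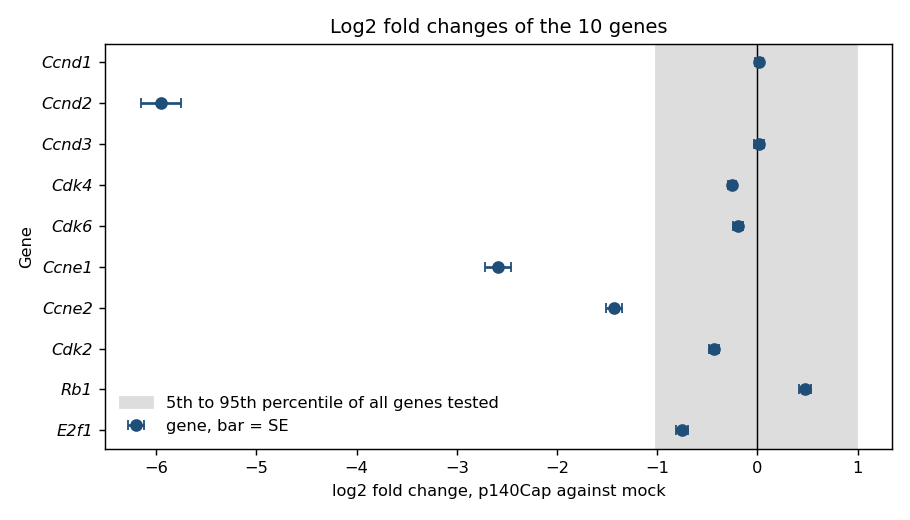
Log2 fold changes of the 10 genes (points, bars are SE) over the band that holds the middle of all 11800 genes tested (5th to 95th percentile, -1.01 to 0.99). Ccnd2, Ccne1 and Ccne2 lie below the band, at -5.95, -2.59 and -1.43, and the other 7 genes lie in it.

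Ranked by CPM per kb, the levels in mock cells ran from Ccnd1 (296, above 99.4% of genes tested) and Cdk4 (106) through Cdk2 (13.5), E2f1 (10.7), Ccnd3 (10.4), Ccne2 (7.29), Ccne1 (4.84), Cdk6 (3.48) and Rb1 (3.02) to Ccnd2 (1.98). Only E2f1 and Ccnd3 overlapped among neighbors in this order. In p140Cap cells the order was Ccnd1 (299), Cdk4 (89.3), Ccnd3 (10.5), Cdk2 (9.98), E2f1 (6.34), Rb1 (4.18), Cdk6 (3.06), Ccne2 (2.71), Ccne1 (0.805) and Ccnd2 (0.0312), and only Ccnd3 and Cdk2 overlapped. Ccnd2 was thus the least abundant of the 10 already in mock cells, and Rb1 moved from below to above both E cyclins.

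By their location, 9 of the 10 genes (all but E2f1) overlap at least 1 annotated gene on the opposite strand. Ccnd3 and Rb1 also overlap several on their own strand. The library kit keeps the strand, but the sources used here do not say whether the counting used it, so reads of such overlapping stretches could be split or shared.

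The other genes of the pathway were read from lists of well-known members, none of which holds the 10 genes. The lists were chosen with earlier results of these data known, so their counts are a description. They stand beside the 71.1% of all genes tested that were called (35.9% lower and 35.2% higher). In the Rb and E2F family, 12 of 16 genes fell and 2 rose, with a median log2 fold change of -0.53 against 0.00 over all genes tested. Those that fell most were E2f7 (-1.38, SE 0.08, adjusted p = 4.24e-10) and E2f8 (-0.88, SE 0.07, adjusted p = 6.69e-09), which repress E2F genes late in S phase, Tfdp1 (-1.02, SE 0.05, adjusted p = 1.47e-11), the partner with which E2F factors bind DNA, and Lin54 (-0.98, SE 0.06, adjusted p = 6.27e-10), the DNA-binding subunit of the DREAM complex. Rbl2 (0.73, SE 0.05, adjusted p = 4.86e-09), the pocket protein p130 of resting cells, and Tfdp2 (0.37, SE 0.05, adjusted p = 8.22e-06) rose. E2f5 and Lin37 did not pass the test, at log2 fold changes of 0.07 and 0.14. Rbl1, the pocket protein p107 and itself an E2F target, was named after its value was seen and fell (-0.66, SE 0.05, adjusted p = 1.10e-08), so that of the pocket protein genes Rb1 and Rbl2 were higher and Rbl1 was lower.

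In the E2F target list, chosen with earlier results of these data known, all 30 genes, which encode replication and nucleotide synthesis factors, fell. Their median log2 fold change was -0.93. They went from Cdca7 (-1.81, SE 0.07, adjusted p = 2.09e-12), a nuclear protein that recruits Hells to chromatin, through Fen1 (-1.68, SE 0.05, adjusted p = 2.82e-13), the flap endonuclease of lagging-strand synthesis, Hells (-1.50, SE 0.06, adjusted p = 5.62e-12), a chromatin remodeler, and Cdc6 (-1.39, SE 0.07, adjusted p = 3.05e-11), a licensing factor of replication origins, to thymidine kinase Tk1 (-0.16, SE 0.05, adjusted p = 0.00908), the smallest fall. Their summed level was 4996 to 5047 CPM in mock and 2772 to 2890 CPM in p140Cap libraries.

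Of 7 CDK inhibitor genes, 4 were tested, 2 rose and none fell, no larger a share called than the 71.1% over all genes tested, so the count is no result about the list. Cdkn1a, which encodes p21, went from a mean of 46.6 to 75.6 CPM (log2 fold change 0.70, SE 0.06, adjusted p = 1.02e-08). Cdkn1b, which encodes p27, went from 143 to 185 CPM (0.37, SE 0.04, adjusted p = 1.48e-06). The INK4 genes Cdkn2c (0.02, SE 0.06) and Cdkn2d (0.11, SE 0.05, adjusted p = 0.0758) did not pass the test, though Cdkn2d passed it without mock replicate 3 (adjusted p = 0.0444). Cdkn1c, Cdkn2a and Cdkn2b had 0 reads in each of the 6 libraries, where 3 reads over a group would be 0.0203 reads per 1000000 in mock and 0.0681 in p140Cap cells. For these genes no difference was detectable at this depth, and the INK4 inhibitors of Cdk4 and Cdk6 that were counted were those of Cdkn2c and Cdkn2d.

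Among 24 genes for activation and turnover of G1 cyclin-CDK complexes, 11 fell, 5 rose and 8 did not pass the test, with a median log2 fold change of -0.09. This is a share near the 71.1% called over all genes tested, so the count is no result about the list. The largest falls were those of Skp2 (-1.03, SE 0.06, adjusted p = 4.72e-10), the ubiquitin ligase subunit that recognizes p27, Cdc25a (-0.64, SE 0.05, adjusted p = 1.97e-08), the phosphatase that activates Cdk2, and Cks1b (-0.52) and Cks2 (-0.42), small CDK-binding proteins. Cables1 (0.55), a CDK-binding adaptor, Ccndbp1 (0.37), which binds D cyclins, and Cul1 (0.18), the scaffold of SCF ubiquitin ligases, rose, as did Fbxw7 (0.17, adjusted p = 0.00604), the subunit that recognizes phosphorylated cyclin E, and Ambra1 (0.17, adjusted p = 0.0183), the adaptor that sends D cyclins for degradation. The call of Ambra1 was lost without mock replicate 2 (adjusted p = 0.0614) and without p140Cap replicate 2 (adjusted p = 0.126).

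The remaining cyclins and CDKs were split, with 12 of 30 tested genes lower, 9 higher and a median of -0.05, again near the shares over all genes tested (35.9% lower and 35.2% higher). Cdk14 (-2.06, SE 0.31, adjusted p = 1.89e-05), a kinase that binds cyclin Y and acts in Wnt signaling, was low throughout, at means of 1.42 and 0.347 CPM. It had 4, 6 and 5 reads in the p140Cap libraries, so this SE is likely too small. Ccnj (-1.27), Ccnyl1 (-0.79) and Ccnc (-0.71), the cyclin of the Mediator kinase module, also fell. Cdk18 (1.14, SE 0.07, adjusted p = 3.14e-10), Ccng2 (0.73), an atypical cyclin of cells leaving the cycle, Ccni (0.63) and Cdk19 (0.61), a Mediator kinase, rose. Among the S, G2 and M phase genes, named after their values were seen, Ccna2 (-0.64, adjusted p = 1.04e-08), Ccnf (-0.52, adjusted p = 1.73e-07), Cdk1 (-0.40, adjusted p = 2.15e-06) and Ccnb1 (-0.38, adjusted p = 1.09e-06) fell, and Ccnb2 (-0.06, adjusted p = 0.303) did not pass the test.

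**Figure D4:**
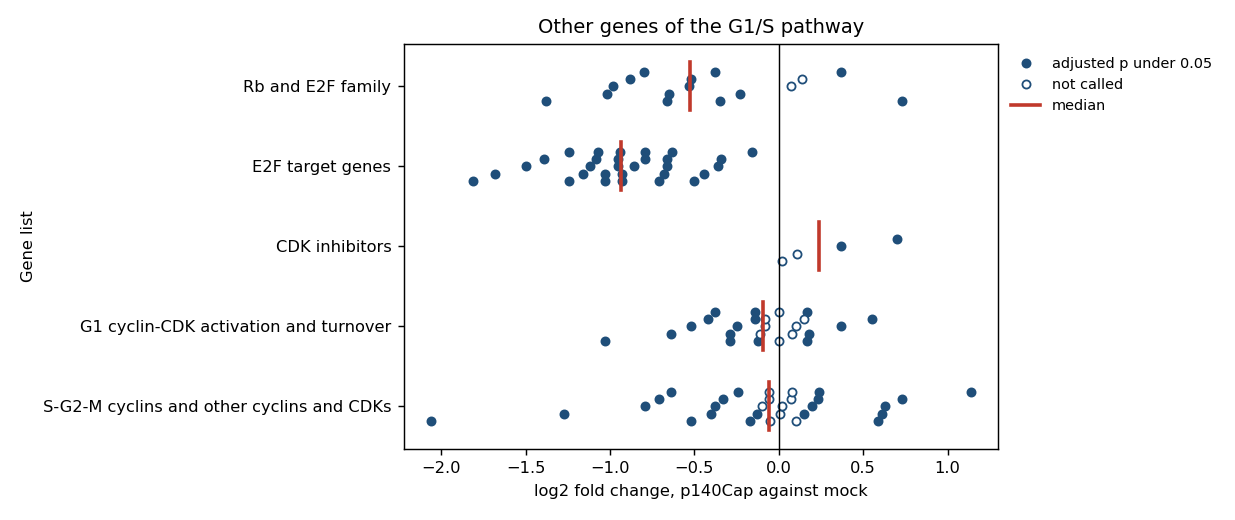
Log2 fold changes of the tested genes in 5 lists of the G1/S pathway, 1 point per gene, filled where the adjusted p was under 0.05, with a line at each list's median. All 30 E2F targets lie below 0 (median -0.93), and none of the 4 tested CDK inhibitors does. The lists were chosen with earlier results of these data known.

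Neighboring genes were read to see whether the differences at the cyclin genes extended along the chromosome, by RefSeq positions of GRCm38.p6. Within 1 Mb of Ccnd2, 4 of 8 tested protein-coding genes fell and 1 rose, no larger a share than the 71.1% called over all genes tested. The nearest, Tigar, a fructose bisphosphatase induced by p53 that lies 15610 bases away, went from a mean of 7.76 to 2.93 CPM (log2 fold change -1.42, SE 0.12, adjusted p = 2.55e-08). Rad51ap1 (-0.62, SE 0.06, adjusted p = 1.36e-07), a factor of recombination repair, D6Wsu163e (-0.20) and Ndufa9 (-0.14) on the same side fell less, and on the other side Prmt8 (1.04, SE 0.08, adjusted p = 5.73e-09), an arginine methyltransferase, rose. Parp11 (0.00), Tspan9 (-0.06) and Cracr2a (0.45, SE 0.48) did not pass the test, so no neighbor approached the -5.95 of Ccnd2. The small falls of D6Wsu163e (adjusted p = 0.0521 and 0.0756 without mock or p140Cap replicate 2) and Ndufa9 (0.0696 without mock replicate 3 and 0.142 without p140Cap replicate 2) were lost when single libraries were left out, and Tspan9 passed the test without p140Cap replicate 2 (adjusted p = 0.0473).

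Around Ccne1, Uri1 (-0.17, SE 0.05, adjusted p = 0.00761) fell, Plekhf1 (0.84, SE 0.09, adjusted p = 1.99e-07) rose, and 1600014C10Rik (-0.04) and Pop4 (-0.10) did not pass the test. Around Ccnd1, Ppfia1 (-0.40) and Shank2 (-0.32) fell, Cttn (0.39) and Tpcn2 (0.28) rose, and Ano1 (0.05) and Fadd (-0.05) did not pass the test. Ano1, a chloride channel gene often amplified together with CCND1 in carcinomas, was at means of 1274 and 1318 CPM in mock and p140Cap cells.

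**Figure D5:**
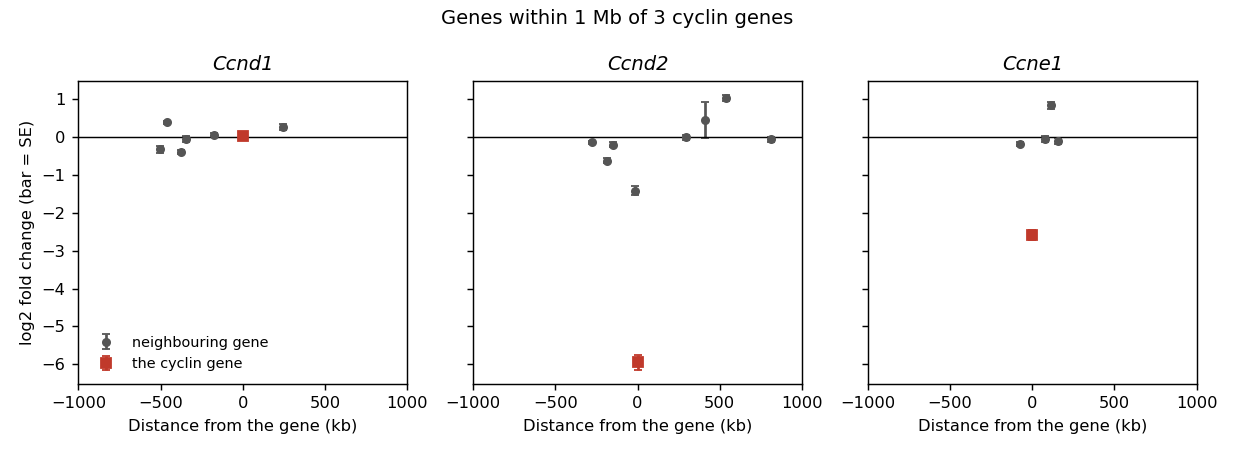
Log2 fold changes (bars are SE) of tested protein-coding genes within 1 Mb of Ccnd1, Ccnd2 and Ccne1 against their distance in kb, with the cyclin gene as a square at 0. Ccnd2 (-5.95) and Ccne1 (-2.59) lie below all of their neighbors, of which Tigar (-1.42) is the lowest.

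The genes whose pattern over the 6 libraries was most like that of each cyclin were found by the root-mean-square difference in log2 CPM, centered on the mock mean. For Ccnd2 they were Gas6 (difference 0.728), with means of 13.9 and 0.337 CPM, St6galnac4, with 15.6 and 0.298 CPM, Dlc1, with 3.03 and 0.0447 CPM, Gprc5a and Bnc1 (difference 0.898). Gprc5a and Bnc1 were at 2.33 and 1.92 CPM in mock and at 0 in p140Cap cells. Their log2 fold changes of -9.24 and -8.95 were larger in size than that of Ccnd2, so the likeness is loose. The genes most like Ccne1 were 2310007B03Rik (difference 0.143), Akr1b3, Kbtbd8, Ctps and Gga2. Ctps, which encodes CTP synthase, was at means of 42.9 and 7.55 CPM. For Ccnd1 they were Sec24b (difference 0.00978), Mms19, Arf1, Surf4 and 1810030O07Rik, each with a log2 fold change of 0.02 or 0.03.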

How the data were processed

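RNA-Seq of 3 mock and 3 p140Cap samples was used. As deposited by the authors, the values are raw counts of reads per gene, in whole numbers, 1 column per sample. The labels state poly(A) selection and the paper a stranded kit and docker4seq. The submitters' processing notes name STAR 2.5, RSEM and mm10, with no roles, while the paper names GRCm39. Annotation and strand setting: not given in the sources used here.

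Counts were analyzed in R 4.3.3 with edgeR 4.0.16 (TMM factors, filterByExpr by group, quasi-likelihood test on condition alone, threshold 0.05 after Benjamini-Hochberg adjustment over 11800 genes), after tests on simulated counts. SE was obtained as |log2 fold change|/√F, which can be too small for genes with few reads, such as Ccnd2. CPM uses TMM-adjusted library sizes. Exonic lengths and overlaps came from GENCODE M39 (98.6% of genes matched), and positions and upstream sequences from RefSeq tables of GRCm38.p6 (93.6% of symbols matched). Upstream sequence outside the annotated gene was used for Ccne1, Cdk2, Cdk4 and Ccnd3. No entry was used for Ccnd1, Ccnd2, Ccne2 and Rb1.

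The genes and lists were chosen with earlier results of these data known. Named genes are the 10 genes, Srcin1, in each list up to 4 called genes of largest change per direction and those not called where 5 or fewer, the 5 genes most like Ccnd1, Ccnd2 and Ccne1 (prior count 2), and tested neighbors within 1 Mb. Rbl1, Ambra1, Tk1, Ccna2, Ccnf, Cdk1, Ccnb1, Ccnb2, a few markers of cell types and list genes that lost or gained a call were named after their values were seen. Alternatives were DESeq2 1.42.0, limma-voom (limma 3.58.1), RLE factors, other filters, thinning to 1 total, a replicate block and leaving out each library.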

Additional observations from a re-analysis of the deposited data

How the results depend on the processing

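As a description of genes chosen on this comparison, the log2 fold change of Ccnd2 was lowest (-6.47) without p140Cap replicate 2 and highest (-5.53) without p140Cap replicate 3, and that of Ccne1 lay between -2.82 and -2.36. Ccnd2 had too few reads for the filter of 10 reads in every library. The sign of the 2 genes at 0.02 was not stable. With no filter on low counts Ccnd1 was at -0.01 and Ccnd3 at -0.01, and leaving out single libraries put Ccnd3 between -0.01 and 0.03. With reads not divided by length, the mock and p140Cap shares were 92.5% and 93.6% for Ccnd1, 1.22% and 0.0191% for Ccnd2, 6.30% and 6.37% for Ccnd3, 30.1% and 15.8% for Ccne1 of the E cyclins, and 87.9% and 87.4% for Cdk4 of its pair, since the genes differ in length. Leaving out single libraries, 14 Rb and E2F family genes and 30 E2F targets were called each time, 2 to 3 CDK inhibitors (Cdkn2d added without mock replicate 3), 13 to 16 activation and turnover genes (16 with all libraries; Cul3, Cul4a, Rbx1, Cables2 and Ambra1 lost a call) and 18 to 21 other cyclins and CDKs (21; Ccnt1, Cdk10 and Cdk12). Calls were also gained in this way, by Cdc37 and Mnat1 among activation and turnover genes and by Ccnl1 and Cdk9 among other cyclins and CDKs. With the replicate number as a replicate block, 8034 of all genes were called, against 8388. Same-numbered libraries did not deviate together (correlations of deviations -0.0299, -0.106 and -0.0573). This cannot show whether they were prepared together, since a shared preparation need not leave a shared deviation. Of the 10 genes, Ccnd2 had the fewest reads in p140Cap libraries, at 1 to 7.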
